A study of Mus musculus with 4 samples.

Results

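The genes described here encode the collagen chains, the laminin chains and the integrin subunits of the mouse, chosen by symbol from the deposited count table: a name of the form Col, number, a, number; a name of the form Lama, Lamb or Lamc followed by a digit from 1 to 5; or a name of the form Itga or Itgb followed by a number and, in a few genes, a letter. Of 50559 genes listed, 76 matched. They fell into 19 genes of the basement membrane (the collagen IV chains, Col15a1, Col18a1 and the laminins), 11 fibrillar collagens, 25 other collagens and 21 integrins. Itgav, Itgal and 4 other integrins whose symbols carry no number were outside the pattern and are described apart.

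The study asked how the transcriptome of mouse embryonic stem cells (ESCs) responds to loss of CNOT1, the scaffold of the CCR4-NOT deadenylase complex and a partner of the m6A reader YTHDF2. All cells were of the E14 line of mouse ESCs, kept on gelatin with KnockOut Serum Replacement and leukemia inhibitory factor. The labels name no genetic change, whereas the study's methods describe its ESCs as carrying a tdTomato reporter transgene under the MERVL promoter, without setting any group apart. The siNT group received a non-targeting siRNA and the siCnot1 group an siRNA against Cnot1, with 2 biological replicates and therefore 2 libraries in each. The study's methods list a pair of siRNAs against Cnot1 without saying which was used for these libraries, so an effect of a single siRNA sequence and an effect of Cnot1 loss cannot be told apart. Library totals lay between 32135824 and 32557440 counts. Cnot1 itself was at 913 and 986 CPM (counts scaled to library size) in the siNT libraries and at 185 and 192 CPM in the siCnot1 libraries, which was 19.8% of the siNT mean. Reads came from whole cultures, so fewer cells of a type and less RNA per cell cannot be told apart.

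Collagens are triple helices of chains that are hydroxylated and folded in the endoplasmic reticulum with the help of dedicated enzymes and chaperones. Fibrillar collagens assemble into the fibers of connective tissue, while collagen IV and the laminins, cross-shaped trimers of an alpha, a beta and a gamma chain, form the sheet of the basement membrane. Integrins are receptors made of an alpha and a beta subunit that bind these ligands outside the cell and the actin cytoskeleton inside it. In the early mouse embryo the first basement membranes are laid down by the primitive endoderm and its derivatives, and ESCs themselves secrete laminin and adhere to it through integrins that contain the beta subunit Itgb1. The CCR4-NOT complex shortens poly(A) tails and is brought to mRNAs by several adaptors, among them the miRNA-silencing complex. The mRNAs of many collagens and of some laminins and integrins are textbook targets of the miR-29 family.

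The sequences of that family are shown because all its members read the same site. The mature miRNAs, from RefSeq on GRCm38.p6, are printed with the seed (bases 2 to 8) in capitals, and the seed is the same in all of them:
mmu-miR-29a-3p: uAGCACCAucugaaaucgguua
mmu-miR-29b-3p: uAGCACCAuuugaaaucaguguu
mmu-miR-29c-3p: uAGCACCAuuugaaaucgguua

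The matching site on an mRNA reads TGGTGCT. It was searched on the transcript strand of the annotated 3′ UTRs of GENCODE M21 (build GRCm38). The examples are members of the basement membrane, fibrillar and integrin groups, chosen after their values were seen, with the match in capitals and 8 bases of its surroundings on each side.
Col4a1, chr8:11199754-11199776, minus strand: tcacaacaTGGTGCTactccccc
Col4a2, chr8:11448351-11448373, plus strand: ggccacgtTGGTGCTtatccttc
Lamc1, chr1:153220061-153220083, minus strand: tgacacacTGGTGCTattaatta
Col1a1, chr11:94952530-94952552, plus strand: ggaatttcTGGTGCTatagaagc
Col5a3, chr9:20770496-20770518, minus strand: aggcctttTGGTGCTattccttt
Itga5, chr15:103344747-103344769, minus strand: accgtggaTGGTGCTgcaggacc

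Collagen, laminin and integrin mRNAs were mostly higher after Cnot1 knockdown. Of the 76 genes, 58 had enough reads to be tested, and 33 of these rose and 3 fell at an adjusted p under 0.05, while 22 did not pass. Every adjusted p given here is from the quasi-likelihood test of edgeR, adjusted by the Benjamini-Hochberg method across the 18144 genes tested. Over all of those genes 15.0% rose and 14.7% fell, and 29.7% changed in either direction. The members that fell included Itga3 and Col6a5. Over the 58 tested members the log2 fold change had a median of 0.62 and a range from -0.65 to 2.47, beside a median of 0.0084 over all tested genes. Genes at low levels had a higher background median, given below beside the members at those levels. The siCnot1 libraries both lay above both siNT libraries in 45 of the 58 (32.7% of all tested genes), both below in 4 (31.2% of all tested genes) and overlapped them in 9. Members named below for a small adjusted p had to have libraries that did not overlap, so that trait adds no support for them. Most changes were moderate, since 13 of the 33 that rose did so by at least 2-fold and 20 by less. The study's methods called genes with DESeq2 at an unadjusted p of at most 0.05 and at least a 2-fold change. With that threshold on the edgeR fit, 16 members rose and 0 fell, against 6.18% and 1.8% of all tested genes.

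The call for a given gene often rested on having all 4 libraries. With a single library left out, the number of members that rose was 8 without siNT replicate 1, 7 without siNT replicate 2, 15 without siCnot1 replicate 1 and 26 without siCnot1 replicate 2. The 8 members that kept their call in all 4 of those fits were Col4a1, Col4a2, Lamb1, Col5a3, Itga5, Itga8, Itgb5 and, downward, Itga3. No called member changed sign in any of them.

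**Figure D1:**
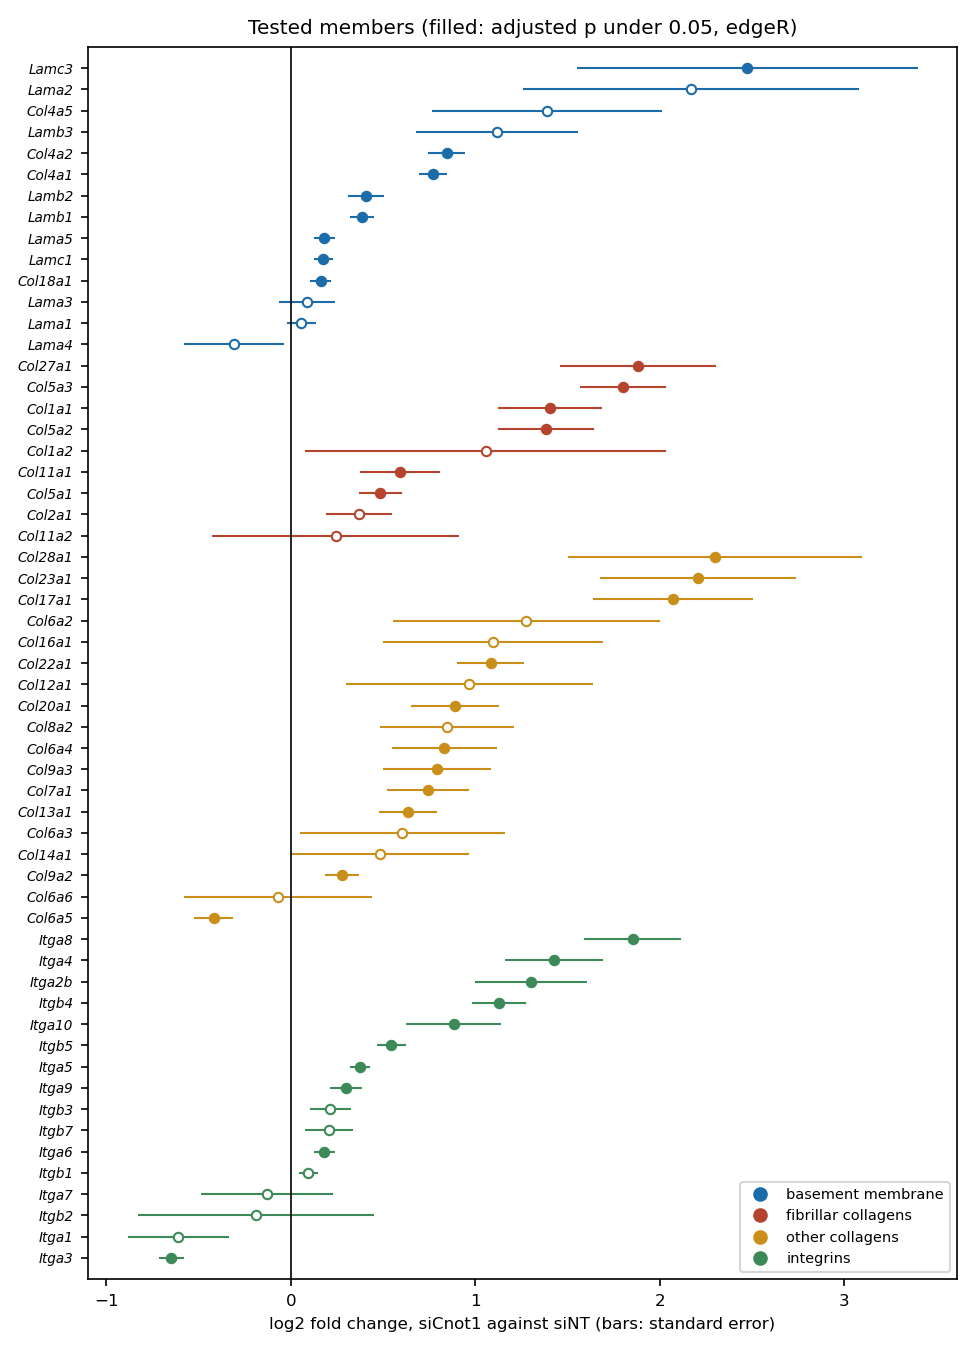
Log2 fold change of 57 tested members (x axis, siCnot1 against siNT; bars are the standard error), ordered by group and color. Filled points passed the threshold (edgeR, adjusted p under 0.05). Of the 57 points 50 lie to the right of 0, beside 9264 of all 18144 tested genes. The widest bars belong to genes with few reads.

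The 18 members that could not be tested had at most 18 counts in a library, and 3 of them (Col3a1, Col4a3 and Itgb2l) had no count in any library. The filter was passed by 10 members that had fewer than 2 siNT libraries with at least 10 counts, whose place among the tested genes therefore depended on the siCnot1 libraries. Of those 10 members 3 rose (Lamc3, Col23a1 and Col28a1). Of the 48 with at least 10 counts in both siNT libraries, 30 rose and 3 fell.

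Basement membrane genes ran from Lamc1, at 81.2 FPKM (CPM per kilobase of exon) on average over the 4 libraries, to Col4a3, with no count. Of 19 genes 15 were tested, 8 rose, 1 fell and 6 did not pass, and the median log2 fold change was 0.39. The clearest changes were in the main collagen IV chains. Col4a1 (chromosome 8, 11248423 to 11362889 in the deposited positions, which are those of GRCm39) encodes the chain that with Col4a2 makes up the collagen IV of nearly all basement membranes. It stood at 42.5 and 43.9 CPM in siNT and at 75.5 and 71.9 CPM in siCnot1. Both knockdown values exceeded both controls by far more than the replicates differed, and the log2 fold change was 0.77 (SE 0.0777, adjusted p = 1.04e-07 in edgeR), or 1.71-fold.

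Col4a2 (chromosome 8, 11362805 to 11499287) starts head to head with Col4a1 on the other strand, and the deposited gene spans share 85 bases. It was at 23.7 and 20.6 CPM in siNT and at 40.3 and 39.3 CPM in siCnot1, again without overlap. Its log2 fold change of 0.84 (SE 0.0996, edgeR's adjusted p = 9.08e-07) was within the standard errors of that of Col4a1. Per length, in FPKM, the level of Col4a1 was 1.41 and 1.67 times that of Col4a2 in siNT and 1.47 and 1.43 times in siCnot1, so the ratio of the partner chains in siCnot1 stayed inside its range in siNT.

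The other collagen IV genes, which form the networks of kidney, lung and some specialized basement membranes, were scarcely detected. Col4a5 had 13 and 5 counts in siNT and 27 and 24 counts in siCnot1, and its difference did not pass (adjusted p = 0.0998 in edgeR). Col4a6 had 3, 0, 3 and 10 counts in siNT replicates 1 and 2 and siCnot1 replicates 1 and 2, and Col4a4 had 4, 0, 4 and 4. These and Col4a3, with no count, were not tested. Of the collagens with an endostatin-type domain, Col18a1 was well expressed and Col15a1, with 2 to 18 counts per library, was not tested.

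Laminin chains differed among themselves. Of the 11 laminin genes, all tested, 5 rose, and their median log2 fold change was 0.18. Lamc1, the gamma chain of most laminins, was the most abundant at 76.2 ± 1.73 FPKM in siNT and 86.1 ± 2.93 FPKM in siCnot1 (mean ± SD, n = 2). In CPM it was at 572 and 590 against 672 and 641. The groups did not overlap, but the log2 fold change was small, 0.18 (SE 0.0538, edgeR's adjusted p = 0.0152).

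Lamb1, the beta chain that pairs with Lamc1 in early embryonic laminin, also rose. It was at 101 and 93.2 CPM in siNT and at 125 and 129 CPM in siCnot1, with a log2 fold change of 0.39 (SE 0.0642, adjusted p = 7.16e-05 in edgeR). Lamb2, an alternative beta chain, was at 37.0 and 31.9 CPM against 48.6 and 42.9 CPM and rose by a log2 fold change of 0.41 (SE 0.0966, edgeR's adjusted p = 0.00236). Neither beta chain overlapped between the groups. Per length, Lamb1 stood at 0.230 and 0.206 of Lamc1 in the controls and at 0.243 and 0.262 of it in the knockdown.

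The alpha chains carry the sites that integrins bind. Lama5, the alpha chain of a laminin that supports the adhesion of ESCs, was at 230 and 218 CPM in siNT and 264 and 244 CPM in siCnot1 (log2 fold change 0.18, SE 0.0589, edgeR's adjusted p = 0.0220). Lama1, the alpha chain of the first embryonic laminin, was at 59.6 and 66.6 CPM against 66.5 and 64.9 CPM. The Lama1 values of the groups overlapped, and its log2 fold change of 0.06 had a 95% interval from -0.09 to 0.21. The alpha chains Lama2, Lama3 and Lama4 did not pass either, with log2 fold changes of 2.17 on 1 to 15 counts per library, 0.09 and -0.31.

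Lamb3, a beta chain of epithelial laminin, was at 21 and 18 counts in siNT and 43 and 48 counts in siCnot1, and its difference did not pass (adjusted p = 0.0593 in edgeR). Lamc3 was called higher on 2 and 2 counts against 14 and 11 counts (adjusted p = 0.0462 in edgeR), and the call was lost with DESeq2 and with the replicate number in the fit.

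Col18a1, whose collagen XVIII core protein carries heparan sulfate and releases endostatin, was at 235 and 222 CPM in siNT and 261 and 251 CPM in siCnot1. The difference was small, at a log2 fold change of 0.16 (SE 0.0574, edgeR's adjusted p = 0.0351), and the adjusted p was 0.0591 when the replicate number entered the edgeR fit as a block. Summed over all 19 basement membrane genes, levels were 185 and 182 FPKM in siNT and 215 and 206 FPKM in siCnot1.

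**Figure D2:**
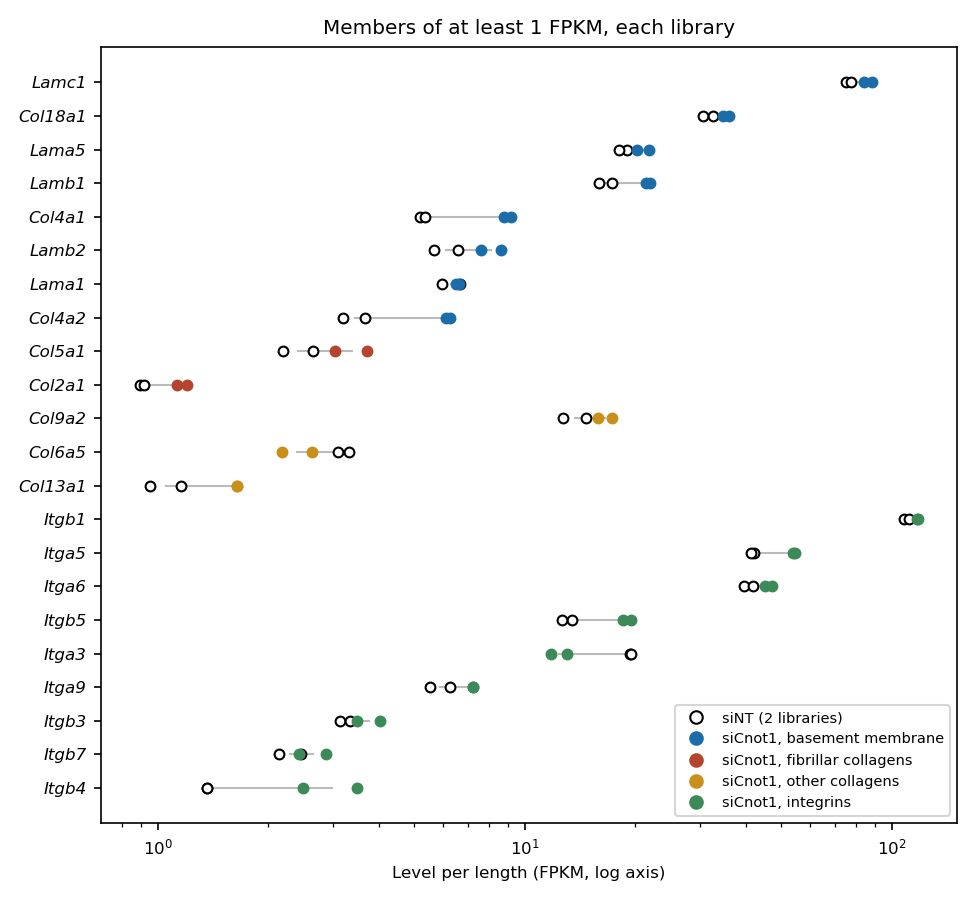
Level per length of 22 members of at least 1 FPKM on average, in each library (x axis, FPKM, log scale; open points siNT, filled points siCnot1, colored by group; grey lines join the group means). In 18 of these 22 genes both filled points lie to the right of the open ones, in Col6a5 and Itga3 to the left, and in Lama1 and Itgb7 they overlap.

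Fibrillar collagens were low in these cells, and most of those tested rose. Of 11 genes 9 were tested, and 6 rose and none fell, with 3 not passing. Over all tested genes 15.0% rose and 14.7% fell. The log2 fold changes of all 9 were above 0, against 9264 of 18144 over all tested genes and 3718 of 5862 under 1 FPKM. The median of the 9 was 1.06, the value of Col1a2, and it was 0.62 without siNT replicate 1 and 0.68 without siCnot1 replicate 1. Summed over the 11 genes, levels were 4.83 and 4.64 FPKM in siNT and 8.63 and 7.52 FPKM in siCnot1.

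The chains of collagen V, which nucleates fibrils of collagen I, all rose. Col5a1, the most abundant fibrillar chain, was at 22.5 and 18.7 CPM in siNT and 31.6 and 25.9 CPM in siCnot1 (log2 fold change 0.48, SE 0.116, edgeR's adjusted p = 0.00267). Col5a2 went from 1.74 and 1.95 CPM to 4.09 and 5.53 CPM (log2 fold change 1.38, SE 0.259, edgeR's adjusted p = 0.000254). Col5a3 was at 1.93 and 2.11 CPM in siNT and at 8.24 and 5.83 CPM in siCnot1, without overlap. Its log2 fold change of 1.80 (SE 0.232, edgeR's adjusted p = 3.04e-06) corresponds to 3.48-fold.

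The chains of collagen I, the main fiber of skin, bone and tendon, behaved unevenly. Col1a1 had 39 and 48 counts in siNT and 116 and 131 counts in siCnot1 and rose (log2 fold change 1.403, SE 0.282, edgeR's adjusted p = 0.000541). Col1a2, its partner chain, had 0 and 12 counts in siNT and 24 and 3 counts in siCnot1. The Col1a2 libraries scattered across both groups and its difference did not pass (edgeR's adjusted p = 0.459). Col3a1, which accompanies collagen I in soft tissue, had no count in any library.

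Of the remaining fibrillar chains, Col27a1 of the growth plate rose from 23 and 14 counts to 96 and 51 counts (log2 fold change 1.88, SE 0.421, edgeR's adjusted p = 0.00146). Col11a1, a minor chain of cartilage fibrils, was at 3.12 and 3.57 CPM against 4.75 and 5.35 CPM (log2 fold change 0.59, SE 0.218, edgeR's adjusted p = 0.0433). DESeq2 did not call Col11a1 (adjusted p = 0.115). Col2a1, the main cartilage collagen, was at 5.37 and 5.49 CPM against 7.22 and 6.78 CPM. The Col2a1 libraries did not overlap, but its log2 fold change of 0.37 did not pass (unadjusted p = 0.0507, adjusted p = 0.129 in edgeR). It passed only when library totals replaced the TMM scaling (edgeR's adjusted p = 0.0473). The normal 95% interval of Col2a1, 0.02 to 0.72, leaves out 0 although the unadjusted p was above 0.05. The other 2 fibrillar genes were Col11a2, which overlapped between the groups, and Col24a1, with at most 4 counts and not tested.

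The 25 other collagens are network-forming, beaded, membrane-anchored or associated with the surface of fibrils. Of these 18 were tested, 10 rose, 1 fell and 7 did not pass, and the median log2 fold change was 0.84. The place of Col6a2, Col12a1, Col16a1, Col23a1 and Col28a1 among the tested genes depended on the siCnot1 libraries. The transmembrane collagens, which are anchored in the plasma membrane and shed from it, rose in all 3 genes tested, Col23a1 included. Over all tested genes 15.0% rose. Col25a1, with at most 3 counts in a library, was not tested. Col13a1 was at 7.46 and 6.13 CPM in siNT and 10.6 and 10.5 CPM in siCnot1 (log2 fold change 0.64, SE 0.158, edgeR's adjusted p = 0.00351). Col17a1, the collagen of hemidesmosomes, had 10 and 24 counts in siNT and 98 and 56 counts in siCnot1 (log2 fold change 2.07, SE 0.435, edgeR's adjusted p = 0.000808). Col23a1 had 15 and 5 counts against 43 and 57 counts (log2 fold change 2.21, SE 0.530, edgeR's adjusted p = 0.00269). None of these overlapped between the groups, which was part of the rule that named them. The span of Col23a1 overlaps that of Phykpl on the same strand, which was far more abundant, at 23.8 CPM in siNT and 24.0 CPM in siCnot1.

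Fibril-associated collagens (FACITs) had log2 fold changes above 0 in all 7 tested genes, and 4 rose. Over all tested genes 9264 of 18144 were above 0 and 15.0% rose. Col12a1 and Col16a1 had at least 10 counts in only 1 siNT library. Their place among the tested genes therefore depended on the siCnot1 libraries, and Col9a1 and Col19a1 had too few reads to be tested. Col9a2, a chain of the cartilage FACIT collagen IX, was the most abundant of the other collagens at 13.7 ± 1.41 FPKM in siNT and 16.6 ± 1.05 FPKM in siCnot1 (mean ± SD, n = 2), a log2 fold change of 0.28 (SE 0.0936, edgeR's adjusted p = 0.0280) that was 0.18 without siNT replicate 2. Its partner Col9a3 had 58 and 56 counts against 131 and 81 counts (log2 fold change 0.79, SE 0.294, edgeR's adjusted p = 0.0450). That call was lost with DESeq2 (adjusted p = 0.123) and with the replicate number in the edgeR fit (adjusted p = 0.0531), and the log2 fold change was 0.41 without siCnot1 replicate 1. Col9a3 overlaps Tcfl5 on the opposite strand, at 43.1 CPM in siNT and 38.3 CPM in siCnot1. Col22a1, a collagen of tissue junctions, was at 4.34 and 4.15 CPM in siNT and 10.001 and 7.98 CPM in siCnot1 (log2 fold change 1.08, SE 0.183, edgeR's adjusted p = 8.68e-05). The Col22a1 groups did not overlap.

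Collagen VI, the beaded filament next to many basement membranes, went both ways. Of its 5 tested genes Col6a4 rose, a call lost with DESeq2, Col6a5 fell and 3 did not pass. Col6a5 was the second most abundant of the other collagens, at 29.5 and 31.5 CPM in siNT and 20.6 and 25.0 CPM in siCnot1. Both knockdown values lay below both controls, with a log2 fold change of -0.42 (SE 0.107, adjusted p = 0.00448 in edgeR). The classical chains Col6a1, Col6a2 and Col6a3 had between 2 and 28 counts per library, and none of them passed or, for Col6a1, was tested. Summed over all 25 genes, levels were 21.95 and 19.8 FPKM in siNT and 27.3 and 25.4 FPKM in siCnot1.

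Among the 21 integrins, 16 were tested, 9 rose, 1 fell and 6 did not pass, and the median log2 fold change was 0.26. The alpha subunits, which decide the ligand, accounted for 7 of the rises and for the fall, among 10 tested. Of the 6 tested beta subunits 2 rose. The summed level of the 21 genes was 238 and 242 FPKM in siNT and 272 and 267 FPKM in siCnot1.

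Itgb1, the common beta subunit of the laminin, collagen and fibronectin receptors, had the highest level of all 76 genes. It was at 454 and 468 CPM in siNT and at 490 and 495 CPM in siCnot1, or 110 ± 2.40 and 117 ± 0.785 FPKM (mean ± SD, n = 2). The libraries did not overlap, yet the log2 fold change of 0.09 did not pass (95% interval -0.01 to 0.20, edgeR's adjusted p = 0.196). With library totals in place of TMM it was 0.20 and passed (edgeR's adjusted p = 0.00383).

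Of the partners of Itgb1, Itga5 and Itga6 rose. Itga5, which with it forms the fibronectin receptor, was at 189 and 185 CPM in siNT and 243 and 241 CPM in siCnot1 (log2 fold change 0.37, SE 0.0561, edgeR's adjusted p = 2.05e-05). Per length, Itga5 was 0.390 and 0.371 of Itgb1 in siNT and 0.466 and 0.457 of it in siCnot1. Itga6, a laminin-binding subunit typical of ESCs, was at 241 and 254 CPM against 286 and 274 CPM (log2 fold change 0.18, SE 0.0569, edgeR's adjusted p = 0.0181). Neither gene overlapped between the groups.

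Itga3, the other laminin-binding partner of Itgb1 at an appreciable level, went the other way. It was at 103 and 104 CPM in siNT and 69.2 and 62.8 CPM in siCnot1. The fall, a log2 fold change of -0.65 (SE 0.0695, adjusted p = 2.46e-07 in edgeR), left it at 0.638 times its control level, and it was kept without any single library. The laminin-binding alpha subunits thus went in different directions, Itga6 rising and Itga3 falling, while Itga7, a further one, overlapped at 41 to 52 counts per library (log2 fold change -0.13).

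Integrin subunits of other specificity included the steepest rises of the class. Itgb5, a beta subunit that pairs with Itgav to bind vitronectin, was at 47.8 and 44.9 CPM in siNT and 69.4 and 65.9 CPM in siCnot1 (log2 fold change 0.54, SE 0.0791, edgeR's adjusted p = 1.37e-05). Itgav, outside the symbol pattern, rose from 56.8 and 63.3 CPM to 86.2 and 80.1 CPM (log2 fold change 0.47, SE 0.0753, edgeR's adjusted p = 4.60e-05). Per length, Itgav stood at 0.415 and 0.493 of Itgb5 in the controls and at 0.434 and 0.425 of it in the knockdown. Both chains of this receptor were thus higher in the knockdown, and their ratio lay within the control range.

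Itga8, a receptor subunit for nephronectin that acts in kidney development, was at 1.61 and 1.34 CPM in siNT and 6.06 and 4.60 CPM in siCnot1 (log2 fold change 1.85, SE 0.262, edgeR's adjusted p = 9.94e-06). Nephronectin itself, Npnt, rose from 11.3 and 11.96 CPM to 24.6 and 22.6 CPM (log2 fold change 1.02, edgeR's adjusted p = 5.22e-07). Itgb4, the hemidesmosomal partner of Itga6, was at 8.81 and 8.81 CPM in siNT and 22.5 and 16.0 CPM in siCnot1 (log2 fold change 1.13, SE 0.146, edgeR's adjusted p = 3.12e-06). In all 3 of these genes the knockdown libraries lay wholly above the controls, a trait of 32.7% of all tested genes. It was a condition for naming Itga8 and Itgb4. Itgb4 overlaps Galk1 on the opposite strand, which was at 61.5 CPM in siNT and 47.7 CPM in siCnot1. Whether the counting used the strand of the libraries is not given in the sources used here, so reads of overlapping genes may not be told apart.

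Integrin subunits known from leukocytes and platelets were low. Itgb7, a beta subunit of leukocytes and a partner of Itga4, was at 12.2 and 14.0 CPM in siNT and 16.4 and 13.8 CPM in siCnot1, with overlap (log2 fold change 0.21, edgeR's adjusted p = 0.253). Itga2b, the platelet subunit, rose from 35 and 42 counts to 102 and 102 counts (log2 fold change 1.30, edgeR's adjusted p = 0.00201), and Itga4, an alpha subunit for fibronectin and VCAM1, from 54 and 61 counts to 201 and 131 counts (log2 fold change 1.43, edgeR's adjusted p = 0.000243). Itgb2, the beta subunit of leukocytes, had 10 and 22 counts in siNT and 10 and 20 in siCnot1, with full overlap. Itgal, outside the pattern and a partner of Itgb2, fell from 5.50 and 3.99 CPM to 2.66 and 2.15 CPM (log2 fold change -0.98, edgeR's adjusted p = 0.00447). Of the 4 tested integrins outside the pattern 1 rose, 1 fell and 2 did not pass.

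Gene length and level were set beside these counts, since the members are long mRNAs. Their exonic length as deposited had a median of 6410 bases and ranged from 2746 to 14138 bases, against a median of 3361 bases for all tested genes. Longer genes were higher in siCnot1 over the whole transcriptome, the median log2 fold change running from -0.14 in the decile of the shortest genes to 0.11 in that of the longest. Of the 10095 tested genes in the length range of the members 18.9% rose and 13.8% fell, and their median log2 fold change was 0.05.

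Within bins of length the members stood as follows. Under 5000 bases 5 of 9 members rose and none fell, against 11.9% and 15.9% of all tested genes. Between 5000 and 8000 bases 19 of 34 rose and 2 fell, against 20.2% and 13.2%. Above 8000 bases 9 of 15 rose and 1 fell, against 23.8% and 10.7%. The share of members that rose was 55.6%, 55.9% and 60.0% in the 3 bins. With 9, 34 and 15 members, the bins are too small to show whether that share varied with length. The shares are descriptions without a test, because members of a gene family are not independent draws.

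**Figure D3:**
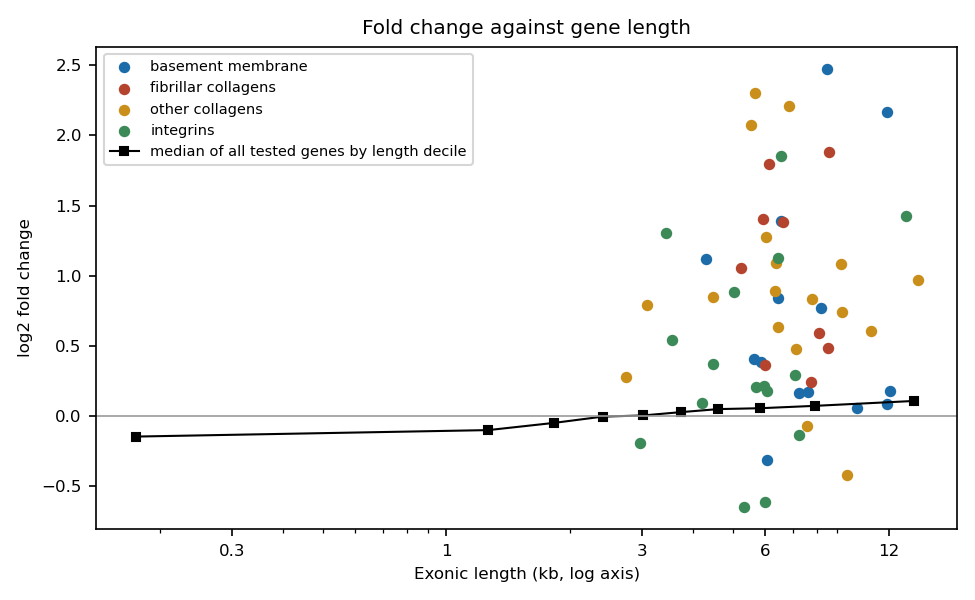
Log2 fold change (y axis) against exonic length (x axis, kilobases, log scale) for 57 tested members, colored by group, with black squares for the median of all tested genes in each decile of length. The black line climbs from -0.14 to 0.11, and most members lie above it at every length.

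Falls outnumbered rises among the abundant genes of the transcriptome, but not among the abundant members. Among genes of at least 10 FPKM 11.7% rose and 31.9% fell, whereas 8 of 11 members rose and 2 fell. Between 1 and 10 FPKM 18.5% of genes rose and 10.1% fell, and 7 of 12 members rose and 1 fell. Under 1 FPKM 14.3% rose and 3.28% fell, and 18 of 35 members rose and none fell. The members that rose thus included genes at every level of expression. The median log2 fold change also differed with level. Under 1 FPKM it was 1.06 in members, 0.25 in all tested genes and 0.32 in those within the members' length range. At 1 FPKM or more these medians were 0.28, -0.033 and 0.0030.

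**Figure D4:**
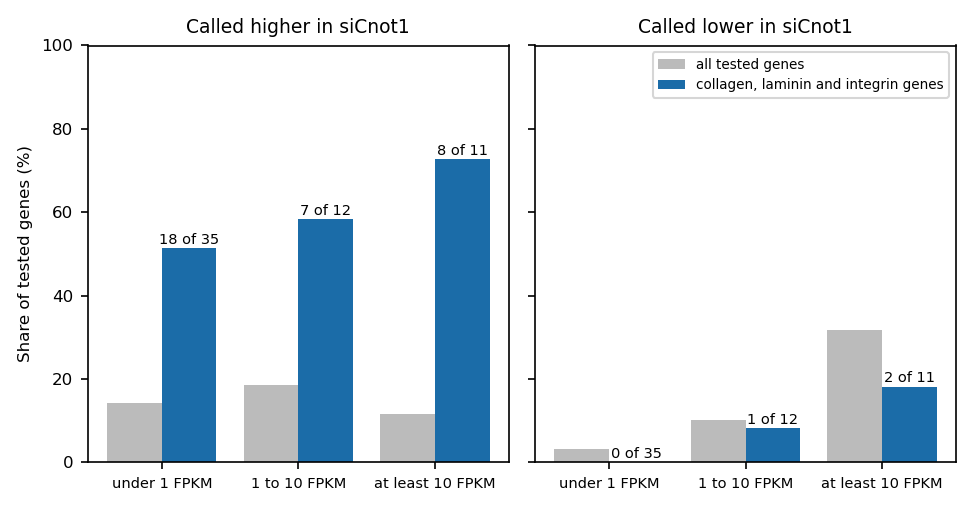
Share of tested genes called higher (left) and lower (right) in siCnot1 (y axis, percent) in classes of mean level per length; grey bars are all tested genes and blue bars the collagen, laminin and integrin genes, with their counts above. The blue bars stand at 51.4% to 72.7% on the left, where the grey bars stand at 11.7% to 18.5%.

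Matches to the miR-29 seed were found in the 3′ UTR of 21 of the 58 tested members (36.2%), all of which had an annotated UTR. Among the 13944 tested genes with an annotated UTR 15.0% held a match, with a median UTR length of 1122 bases against 949 bases in the members. The matches were most frequent in the fibrillar collagens, where 7 of 9 genes had at least 1. Col5a1 had 4 and Col5a3 had 3. The fibrillar group also had the longest UTRs, with a median of 1423 bases. The medians were 368 bases in the basement membrane group, 836.5 in the other collagens and 1047.5 in the integrins. The part of UTR length in these counts was not tested. In the basement membrane group 4 of 15 genes had a match (Col4a1, Col4a2, Col4a5 and Lamc1), in the other collagens 5 of 18 and in the integrins 5 of 16 (Itga4, Itga5, Itga9, Itgb1 and Itgb3).

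Members with a match rose in 14 of 21 cases and those without in 19 of 37, with median log2 fold changes of 0.77 and 0.48. Over all tested genes 21.5% with a match rose and 16.8% without. The genes with matches included Itgb1, which did not pass, and the steepest rises included genes without one, such as Itga8 and Col17a1. By group, 2 of 5 other collagens with a match rose and 8 of 13 without. In the integrins these counts were 3 of 5 and 6 of 11, and in the basement membrane group 3 of 4 and 5 of 11. Of the fibrillar collagens 6 of the 7 with a match rose and 0 of the 2 without. Those 2, Col1a2 and Col11a2, had 39 and 59 counts over the 4 libraries, the fewest of the tested fibrillar genes. Their log2 fold changes were 1.06 (SE 0.979) and 0.24 (SE 0.672), so few reads and the lack of a match cannot be told apart. Within collagen V the log2 fold change was 0.48 in Col5a1, with 4 matches, 1.80 in Col5a3, with 3, and 1.38 in Col5a2, with 1. A match is a description of the annotated sequence only, and mature miRNAs were not measured in these poly(A)+ libraries.

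**Figure D5:**
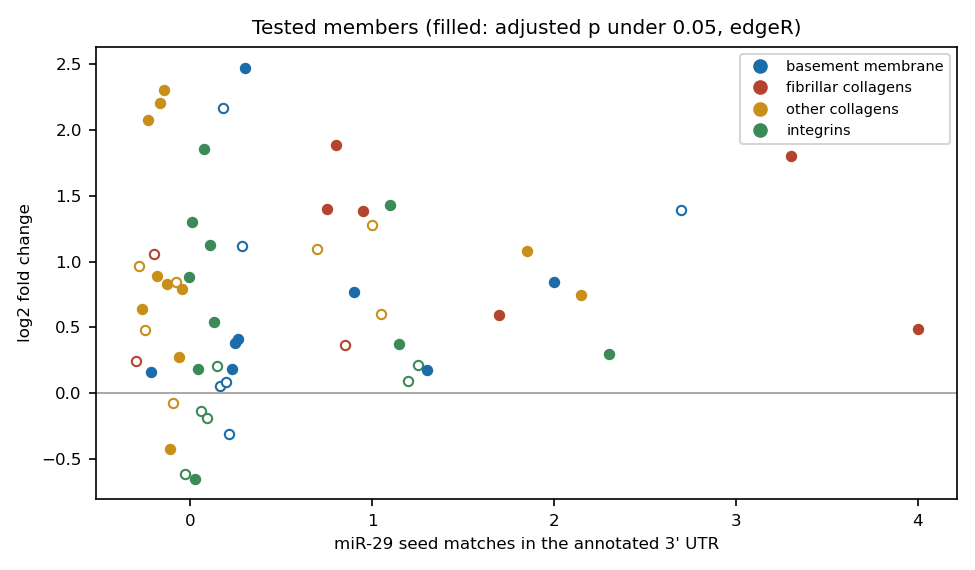
Log2 fold change of 57 tested members (y axis) against the number of miR-29 seed matches in the annotated 3′ UTR (x axis; points of one whole number are spread sideways for visibility), colored by group, filled where the adjusted p was under 0.05 in edgeR. Genes with no match span the whole range of fold changes, and no gene with a match fell.

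Genes that work with the members were taken from lists of partners. Of 14 tested partners of the basement membrane 5 rose and 1 fell, against 15.0% and 14.7% of all tested genes. Their median log2 fold change was 0.25. The crosslinking peroxidase Pxdn, which joins collagen IV through sulfilimine bonds, was at 16.4 and 12.03 CPM against 19.5 and 20.8 CPM (log2 fold change 0.51, edgeR's adjusted p = 0.00472). Fbln1, a fibulin that binds laminin and nidogen, rose by a log2 fold change of 0.84 (edgeR's adjusted p = 1.51e-06). Nid1, the link between laminin and collagen IV, was at 387 and 386 CPM in siNT and 354 and 331 CPM in siCnot1 and fell by 0.18 on the log2 scale (edgeR's adjusted p = 0.0184), a call lost under library totals. Sparc, a collagen-binding protein of basement membranes, had a log2 fold change of -0.01 (SE 0.0546, edgeR's adjusted p = 0.907), which turned positive with library totals.

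Of the 29 tested genes that modify, fold, process or cross-link collagen, 11 rose and none fell, with a median of 0.21. Over all tested genes 15.0% rose and 14.7% fell. Serpinh1, the collagen chaperone of the endoplasmic reticulum, went from 24.9 and 25.6 CPM to 36.9 and 35.2 CPM (log2 fold change 0.51, SE 0.0956, edgeR's adjusted p = 0.000238). Adamts2, which cuts the amino propeptide off fibrillar procollagens, rose by a log2 fold change of 2.47 (edgeR's adjusted p = 9.90e-05) from 0.386 and 0.383 CPM. Loxl2, a cross-linking oxidase, rose by 0.66 (edgeR's adjusted p = 0.00549). The values of Serpinh1, Adamts2 and Loxl2 in siCnot1 lay wholly above those in siNT, a trait of 32.7% of all tested genes. The oxidase Lox had no count in any library.

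Most genes of the machinery on the cytoplasmic side of integrins did not pass. Of 25 tested genes 9 fell (36.0%, against 14.7% of all tested genes), 1 rose and 15 did not pass, the median log2 fold change being -0.16, and with library totals 8 fell and 5 rose. Of the 15 genes of this list at 10 FPKM or more 7 fell, where 31.9% of all tested genes at that level fell. Parvb, a parvin of the complex that links integrins to actin, was at 142 and 140 CPM in siNT and 76.9 and 83.5 CPM in siCnot1 (log2 fold change -0.82, SE 0.0645, edgeR's adjusted p = 3.07e-09). Tns1, a tensin that binds beta subunit tails, fell by 1.06 on the log2 scale (edgeR's adjusted p = 1.50e-08), and Actn4, an actin cross-linker, fell by 0.48 (edgeR's adjusted p = 4.15e-07). In each of these 3 genes the siCnot1 libraries lay wholly below the siNT libraries, a trait of 31.2% of all tested genes.

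Of 9 tested ligands of integrins other than collagens and laminins 3 rose and 1 fell, against 15.0% and 14.7% of all tested genes. Fn1, fibronectin, the ligand of Itga5, was among the most abundant matrix mRNAs and had a log2 fold change of 0.08 (SE 0.0525, edgeR's adjusted p = 0.303). Fbn2, a microfibril protein of the embryo, rose from 3.15 and 3.22 CPM to 10.001 and 9.26 CPM (log2 fold change 1.59, edgeR's adjusted p = 6.50e-07). Of 9 matrix receptors that are not integrins 6 rose and none fell, against the same 15.0% and 14.7% of all tested genes, with a median of 0.55. Dag1, dystroglycan, a receptor for laminin alpha chains, was at 337 and 359 CPM in siNT and 505 and 511 CPM in siCnot1 (log2 fold change 0.55, SE 0.0552, edgeR's adjusted p = 1.04e-07), and the syndecans Sdc2 and Sdc4 rose by 1.501 and 0.94 on the log2 scale (edgeR's adjusted p = 1.98e-07 and 2.25e-06).

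Markers of some cell types that a culture of ESCs could hold were read beside these results. The lists held no markers of 2-cell-like cells, which share transcripts with the 2-cell embryo. The study reported more cells in that state after Cnot1 silencing. The shares over all tested genes, for each count below, were 15.0% higher and 14.7% lower. Of 8 ESC markers 6 fell, none rose, and their median log2 fold change was -0.20. All 8 were at 10 FPKM or more, where 31.9% of all tested genes fell and the median was -0.095. With library totals 3 of the 8 ESC markers fell, their median was -0.095 and Klf4 turned positive. Pou5f1 and Nanog stayed at 878 to 1144 CPM in all 4 libraries, so the labelled cell type was present throughout. Of the 10 tested markers of primitive and parietal endoderm, which secretes much collagen IV and laminin, 4 rose (Lrp2, Dab2, Pdgfra and Cubn) and none fell. Log2 fold changes were above 0 in 8 of these 10 endoderm markers (9264 of all 18144 tested genes), with a median of 0.98. Their summed level was 53.2 and 55.3 CPM in siNT and 123 and 120 CPM in siCnot1, most of it from Lrp2. The transcription factors Gata6 and Sox7 were the 2 endoderm markers below 0, with log2 fold changes of -0.11 and -0.10, and did not pass. Gata4 (0.79, edgeR's adjusted p = 0.0694) and Sox17 were above 0 and did not pass either, and Foxa2 had 0, 0, 0 and 4 counts. Of the 10 fibroblast markers 2 could be tested and Pdgfrb rose, while Dcn, Fap, Prrx1 and Tcf21 had no count, and the summed level was 15.9 and 18.5 CPM against 25.1 and 21.2 CPM. Of 7 tested trophectoderm markers 3 fell and none rose, at 97.5 and 100.4 CPM against 76.4 and 70.5 CPM in sum. Of 3 tested blood markers 2 rose, at 85.2 and 91.4 CPM against 125 and 114 CPM in sum, most of it from Laptm5, while Tyrobp had no count. The part of the endoderm, fibroblast and blood markers in the rise of the collagen, laminin and integrin genes was not tested.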

How the data were processed

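Poly(A)+ RNA of siNT and siCnot1 mouse ESCs was sequenced in stranded libraries. The authors deposited raw counts per gene with gene positions and exonic lengths, with no normalization and no pooling of replicates. The submitters' processing notes name fastp 0.19.4, HISAT2 2.2.1, DESeq2 1.40.2 and mm10; the deposited positions are nevertheless those of GRCm39 (none of the 76 members shares its start and end with GRCm38), and the counting program is not given in the sources used here. Here 18144 of 50559 genes passed filterByExpr at its minimum of 10, and the deposited counts were compared in R 4.3.3 with the quasi-likelihood test of edgeR 4.0.16 after TMM scaling, p being adjusted by the Benjamini-Hochberg method. SEs are the log2 fold change over the square root of F, and 95% intervals are normal, which makes them narrower than the test implies. The biological coefficient of variation was 0.0721. CPM used TMM-scaled library sizes; FPKM divides CPM by exonic length. At this depth 3 counts are 0.0896 to 0.0964 CPM, which covers counting error only. On simulated data edgeR recovered 161 of 200 genes changed 2-fold among 18144, with 6 false calls. The simulation gave every gene the same biological coefficient of variation and few changes, so these figures do not carry over to members with few reads. Alternatives were DESeq2's size factors, library totals, no filter or 1 CPM in 2 libraries, DESeq2 1.42.0, the replicate number as a block, leaving out each library, the study's threshold (unadjusted p of at most 0.05 and at least 2-fold) and subtracting the median of the length decile. Counting members of at least 1 FPKM only was added after seeing the data. UTRs were joined by gene name to GENCODE M21.

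The members, groups, lists of partners and markers were chosen with earlier results of these data known, so their counts are descriptions. Genes named are all collagen IV genes, in each group up to 4 members of the highest FPKM and up to 4 higher and 4 lower members of the smallest adjusted p whose libraries did not overlap, Cnot1, Itgav, Fn1 and Sparc, and up to 3 called genes for each list of partners. Any other gene named was chosen after its values were seen. A single tested member is counted but not reported here by name or drawn in the plots of single genes.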

Additional observations from a re-analysis of the deposited data

How the results depend on the processing

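No called member changed sign under any alternative, and among all tested members Col6a6 alone did so between scalings (library totals). Library totals moved the median log2 fold change of all tested genes from 0.0084 to 0.12, the share of calls that were higher from 50.5% to 71.9%, and the genes called lower from 2668 to 1563. The medians rose by a like amount, to 0.49 for basement membrane genes, 0.95 for other collagens and 0.36 for integrins. With no filter on low counts, which adjusts over many more genes, 1303 genes were higher and 1450 lower, 13 members were higher, and the medians were 0.58 for basement membrane genes and 0.33 for integrins. With at least 1 CPM in 2 libraries these medians were 0.19 and 0.31. The study used its threshold with DESeq2. With the edgeR fit it gave 1121 genes higher and 326 lower (6.18% and 1.80% of those tested), 16 members higher and 0 lower. Among members of at least 1 FPKM 15 were higher. Subtracting the median of the length decile took the integrins to 0.19.

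Of the 36 called members 36 were called again with DESeq2's size factors and with library totals, 15 with no filter, 34 with at least 1 CPM in 2 libraries and 31 with DESeq2 (not Lamc3, Col11a1, Col28a1, Col6a4 and Col9a3). Leaving out each library in turn gave 625 to 1989 genes higher and 705 to 1960 lower, 7 to 26 members higher and 1 to 3 lower. The medians then ranged from 0.31 to 0.44 for basement membrane genes, 0.62 to 1.47 for fibrillar collagens, 0.72 to 0.84 for other collagens and 0.28 to 0.34 for integrins, and Cnot1 from -2.39 to -2.28. In these fits the lone library of a group was assumed to vary like those of the other group. The causes of these shifts were not tested.

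The correlation between deviations of the same replicate number was -0.0136 over 18144 genes. With 2 libraries a group this is 1 value up to its sign, so it cannot show whether the replicates were handled as pairs. The labels give no pairing, and the fit with the replicate block is an alternative only. It kept 32 of the 36 calls, losing Col18a1 (adjusted p = 0.0591 in edgeR), Lamc3, Col28a1 and Col9a3.

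With 2 libraries a group, members with few reads had wide intervals, and the 18 untested members say nothing about a change.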

Other observations

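Replicate 1 was the higher library of its group for most members that rose, in both groups. Of the 33 members that rose, 24 were higher in siCnot1 replicate 1 than in siCnot1 replicate 2, among them Col5a3, Col17a1, Itga8 and Itgb4, and 22 were higher in siNT replicate 1 than in siNT replicate 2. Over all tested genes these shares were 49.4% in siCnot1 and 50.3% in siNT, and over all genes that rose the siCnot1 share was 60.9%.

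The hemidesmosome receptor pairs Itga6 with Itgb4, and these chains moved by different amounts. Per length, Itga6 was 29.1 and 30.7 times as high as Itgb4 in siNT and 13.6 and 18.2 times as high in siCnot1. Among the laminin chains the level of Lama5 relative to Lamc1 lay at 0.254 and 0.233 in siNT and 0.247 and 0.241 in siCnot1, and that of Lama1 at 0.0793 and 0.0858 in siNT and 0.0751 and 0.0770 in siCnot1. The difference between these ratios was not tested.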
